A study of Mus musculus with 1 sample.

Results

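The cells described here are progenitor-like undifferentiated spermatogonia of the mouse testis, 100 of the 970 cell barcodes of 1 single-cell RNA library and 37.7% of its 265 germ cells (exact binomial interval 31.9 to 43.9%). The library was made from wild-type C57BL/6 mice at postnatal day 8, with equal numbers of cells from 3 animals pooled, so it has no replicates. Cells carrying the surface protein THY1 had been selected with magnetic beads, a step that enriches undifferentiated spermatogonia, and a small number of unselected testis cells had been added back. How many cells of each type there are was thus set by the mixing, and no count can be traced to a single mouse. No group differed in genotype or treatment, all comparisons are between classes of cells of the same library, and no test was possible. All intervals are 95% intervals that cover counting error only.

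Spermatogonial stem cells divide slowly to maintain themselves and give rise to progenitors, which divide as chains joined by cytoplasmic bridges before they commit to differentiation. Retinoic acid drives that commitment, marked by the kinase receptor KIT and the retinoic acid target STRA8. Progenitors are known for the transcription factor NEUROG3 and for the retinoic acid receptor RARG, while stem cells respond to the growth factor GDNF through its receptors GFRA1 and RET.

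Members were chosen by their measured counts. A barcode needed at least 500 genes, under 10% of its unique molecular identifiers (UMIs) from mitochondrial genes and at least 7000 UMIs, which left 702 of 970. Of these, 265 passed a germ cell gate of 4 UMIs per 10000 summed over Dazl, Ddx4, Mael, Zbtb16 and Sohlh1, and 437 did not. Germ cells with 2 or more UMIs of Ly6k, Esx1 and Prss50 were set aside first as late gate cells (46 cells). The next class held cells with 4 or more UMIs per 10000 of Kit and Stra8 (Kit/Stra8 gate cells, 49 cells), and the third those with 2 or more per 10000 of Nefm, Lhx1, Etv5 and Bcl6b (stem gate cells, 70 cells). The 100 germ cells left over are the progenitor-like cells. A last clause, against barcodes with 100 or more UMIs of the hemoglobin gene Hba-a1, removed 0 germ cells. The levels of these 15 genes describe the choice and are given no further weight.

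The members nearest a limit had 7452 UMIs, 9.86% mitochondrial UMIs, 6.97 germ gate UMIs per 10000, 3.46 UMIs per 10000 of Kit and Stra8 and 1.90 of the stem gate genes. The nearest cells outside had 6753, 10.1%, 3.63, 4.20 and 2.04. No member lay close to the germ gate, but the other gates cut through continuous ranges. Kit and Stra8 were at 0 in 60 members and above 0 in 40, and the stem gate genes were at 0 in 57 and above 0 in 43. Of the members, 83 had 0 and 17 had 1 UMI of the late gate genes.

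**Figure D1:**
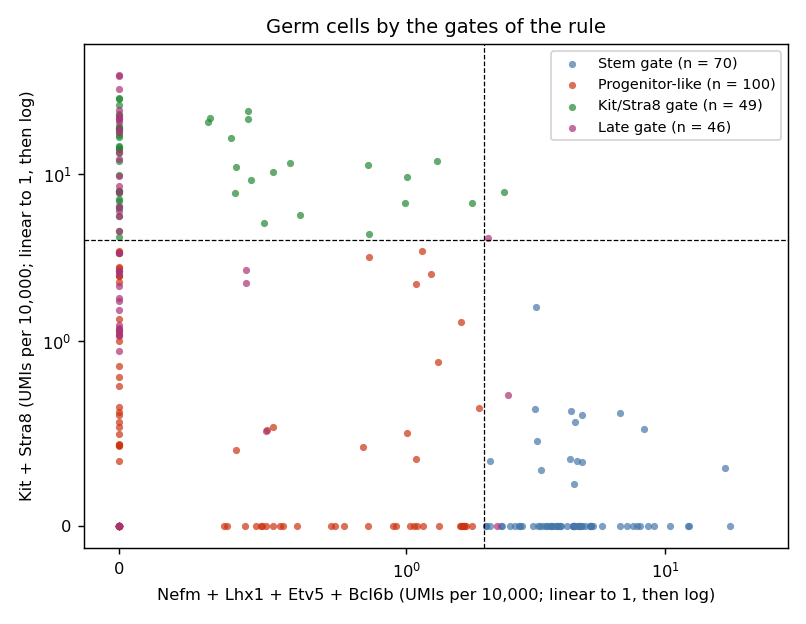
Each point is 1 of the 265 germ cells. The horizontal axis gives the summed UMIs per 10000 of the stem gate genes and the vertical axis those of Kit and Stra8, both linear to 1 and logarithmic above. Dashed lines mark the limits of 2 and 4. Late gate cells, set aside first, overlap the 100 progenitor-like cells of the lower left field, where 27 members had no UMI of the stem gate genes, Kit, Stra8 or the late gate genes.

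The progenitor-like cells held 2024287 UMIs, with 7452 to 40425 per cell, a median of 20038.5 and a median of 4550.5 genes. Median depth was 21999 UMIs in stem gate cells, 20697 in Kit/Stra8 gate cells, 15992.5 in late gate cells and 9151 in the cells below the germ gate. The median mitochondrial share was 7.15% in members, 7.03% in stem gate cells and 7.40% in Kit/Stra8 gate cells. Depth and mitochondrial share were thus alike in the first 3 germ cell classes, and the late gate class was shallower. Below, the level of a gene in a class is given in CPM, its UMIs per 1000000 UMIs of all genes, with the cells of the class added together. A ratio is progenitor-like over another class on the log2 scale with an exact conditional binomial interval, and genes count as higher or lower from a 2-fold difference among genes with at least 50 UMIs.

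Neurog3, Upp1, Ddit4 and Sox3 are the markers given with the name of the class, and the rule did not use them. They were chosen with earlier results of these data known, so their levels describe the name and do not test it. All 4 had their top level of the 4 germ cell classes in the progenitor-like cells, but for Sox3 the difference from Kit/Stra8 gate cells was within counting error, as it was for Neurog3 and Upp1. Of the 100 members, 14 had a UMI of none of the 4 genes, 32 of 1, 28 of 2, 19 of 3 and 7 of all 4. A UMI of at least 2 of them was present in 54.0% of members, 14.3% of stem gate, 40.8% of Kit/Stra8 gate and 6.52% of late gate cells. The markers thus separated the members from stem gate and late gate cells more clearly than from Kit/Stra8 gate cells.

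Neurog3 (chromosome 10, 62133090 to 62134763, plus strand of GRCm38), which encodes a basic helix-loop-helix factor, had 33.1 CPM in progenitor-like cells (exact Poisson interval 25.7 to 42.0, 67 UMIs). It had 1.26 CPM in stem gate cells, 21.4 CPM in Kit/Stra8 gate cells, 1.36 CPM in late gate cells and 0.664 CPM below the germ gate. The log2 ratio was 4.72 over stem gate cells, where it rests on 2 UMIs (interval 2.81 to 7.79), and 0.63 over Kit/Stra8 gate cells (-0.10 to 1.41). Single members ranged from 0 to 3.29 UMIs per 10000 with a median of 0. A Neurog3 UMI was found in 28.0% of members, 2.86% of stem gate cells and 0.686% of cells below the germ gate. It was also found in 15 of the 49 Kit/Stra8 gate cells, a share no lower than that of members. After each cell was thinned to 7000 UMIs the shares were 16% of members, 2.86% of stem gate cells and 0.458% of cells below the germ gate. Members with and without a Neurog3 UMI had similar depths, with medians of 20147 and 19965 UMIs.

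Upp1 (chromosome 11, 9118103 to 9136170, plus strand), encoding the nucleoside-salvage enzyme uridine phosphorylase, followed the same order of classes. Its level was 31.6 CPM in members (24.3 to 40.4), 3.78 in stem gate cells, 20.4 in Kit/Stra8 gate cells, 4.08 in late gate cells and 1.33 below the germ gate. The log2 ratio was 3.06 over stem gate cells (1.86 to 4.56) and 0.63 over Kit/Stra8 gate cells (-0.11 to 1.44). Upp1 was found in 35 members and together with Neurog3 in 18, while 55 members had neither. The 250 bases before the start site of each gene are shown because these 2 markers had the same order of classes and close levels in members and in Kit/Stra8 gate cells. They are taken from RefSeq (GRCm38.p6), 5′ to 3′, and capitals mark the E-box CAGCTG, which reads alike on both strands and is 1 of the sequences that basic helix-loop-helix factors can bind.
Neurog3, chr10:62132840-62133089, plus strand: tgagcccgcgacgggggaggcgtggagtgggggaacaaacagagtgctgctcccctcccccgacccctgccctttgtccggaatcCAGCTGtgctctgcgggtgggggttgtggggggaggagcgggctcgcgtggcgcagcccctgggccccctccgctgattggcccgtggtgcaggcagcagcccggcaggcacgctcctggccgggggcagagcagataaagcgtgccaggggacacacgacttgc
Upp1, first of 3 start sites, chr11:9117758-9118007, plus strand: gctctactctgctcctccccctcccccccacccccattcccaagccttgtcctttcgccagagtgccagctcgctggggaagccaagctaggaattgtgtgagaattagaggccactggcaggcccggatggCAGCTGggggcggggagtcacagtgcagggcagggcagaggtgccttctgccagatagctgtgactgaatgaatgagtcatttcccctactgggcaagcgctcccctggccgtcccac
The motif begins 165 bases before the start of Neurog3 and 118 bases before the first RefSeq start of Upp1. That start lies upstream of the Upp1 position given above, which is from another annotation. Among the 18 genes made up of these markers and the 15 leading genes described next, 14 had a promoter in the table and 3 of the 14 (Neurog3, Upp1 and Fbxo41) held CAGCTG in this window, against 14.7% of all 27025 genes with a promoter. The forkhead motif GTAAACA, searched on both strands, was found in 0 of the 14 and in 3.54% of all genes. Such matches describe the letters of the window and not binding.

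Ddit4 (chromosome 10, 59949669 to 59951834, minus strand) encodes REDD1, an inhibitor of the growth kinase complex mTORC1. It had 64.2 CPM in progenitor-like cells (53.7 to 76.3), against 13.9 in stem gate, 12.2 in Kit/Stra8 gate and 6.80 in late gate cells. The log2 ratios were 2.21 over stem gate cells (1.55 to 2.94) and 2.39 over Kit/Stra8 gate cells (1.54 to 3.38). Ddit4 therefore stood above both neighbouring classes, unlike Neurog3 and Upp1. Single members ranged from 0 to 3.38 UMIs per 10000 with a median of 0.307. It was not restricted to germ cells, since cells below the germ gate had 71.5 CPM and a UMI in 39.6% of cells, against 52.0% of members. With cells thinned to 7000 UMIs, 26% of members, 8.57% of stem gate, 10.2% of Kit/Stra8 gate and 4.35% of late gate cells had a UMI. Without the 9 members with 5 or more somatic marker UMIs per 10000, and without such cells in the other classes, the ratio over other germ cells was 2.53, against 2.44 with them.

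Sox3 (chromosome X, 60891366 to 60893430, minus strand), a SOX family transcription factor gene, had 44.5 CPM in progenitor-like cells (35.8 to 54.6). The levels were 16.4 CPM in stem gate, 42.8 in Kit/Stra8 gate and 32.6 in late gate cells, and 0.886 below the germ gate. Its log2 ratio was 1.44 over stem gate cells (0.80 to 2.13) and 0.05 over Kit/Stra8 gate cells (-0.49 to 0.62). Sox3 was thus higher in members than in stem gate cells, with no difference from Kit/Stra8 gate cells detectable at this depth. A Sox3 UMI was present in 58.0% of members and in 0.686% of cells below the germ gate.

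**Figure D2:**
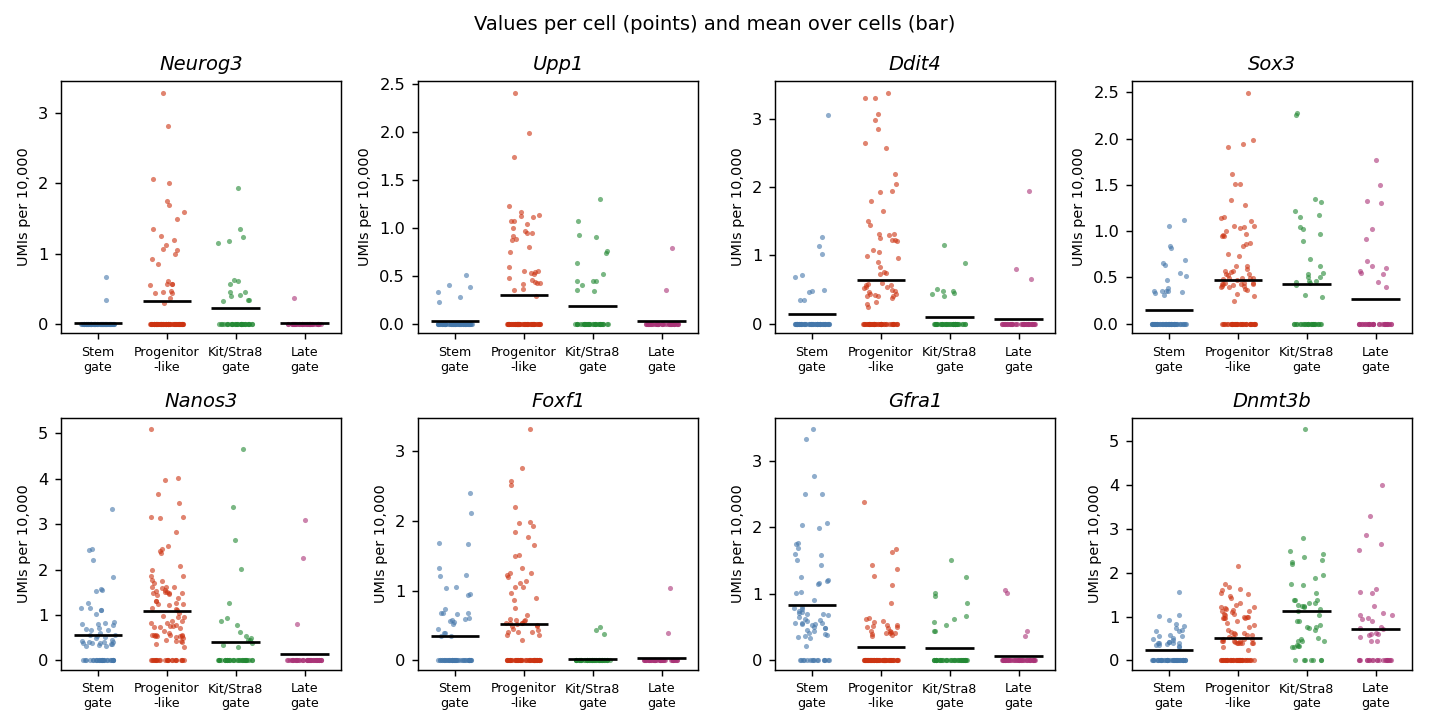
Values per cell in UMIs per 10000 for 8 genes. Each point is a cell, spread sideways at random, and the bar is the mean over cells of the class. Neurog3, Upp1 and Ddit4 were at 0 in many members, and Ddit4, Nanos3 and Foxf1 had their top class mean in the 100 progenitor-like cells.

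Of 8101 genes with enough UMIs, 1130 (13.9%) had their top level of the 4 classes in progenitor-like cells, 2156 (26.6%) their lowest, and 3305 (40.8%) a level between those of stem gate and Kit/Stra8 gate cells. Beside other known progenitor genes, Rarg, Nanos3, Lin28a, Msi2, Eno1, Sall4 and Cdh1, the 4 markers form a list of 11. Of 10 with enough UMIs 8 had their top level in the members, and Sall4 and Rarg lay between the neighbouring classes. Summed over the list, the level was 922 CPM in members (880 to 965), 483 in stem gate, 658 in Kit/Stra8 gate and 248 in late gate cells. The 4 markers of the class are part of these values, so the list does not stand apart from the name.

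Against all 165 other germ cells together, 74 of 8101 genes (0.913%) were at least 2-fold higher in progenitor-like cells and 228 (2.81%) at least 2-fold lower. In the progenitor list, 4 of 10 genes were higher and 0 lower, with a median log2 ratio of 0.95 against -0.12 over all genes tested. These 4 were Nanos3 and the markers Neurog3, Upp1 and Ddit4, so the share of all genes is no measure of enrichment here. Since the gates removed cells from both ends of the lineage, these ratios describe how the remainder differs and test nothing.

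Hmgn5 (chromosome X, 109004534 to 109013404), encoding a nucleosome-binding protein, followed Ddit4 among the 15 leading genes, with a log2 ratio of 1.75 (1.49 to 2.01). It had 183 CPM in members (165 to 202), 77.5 in stem gate, 33.6 in Kit/Stra8 gate and 32.6 in late gate cells, and a UMI in 81.0% of members. Below the germ gate its level was 112 CPM. Foxf1 (chromosome 8, 121084386 to 121088144), a forkhead transcription factor gene, had 54.3 CPM in members (44.7 to 65.5) and 30.9 in stem gate cells, but only 3.06 CPM in Kit/Stra8 gate cells, 2.72 in late gate and 0.443 below the germ gate. The log2 ratio of Foxf1 over Kit/Stra8 gate cells, from 110 and 3 UMIs, was 4.15 (2.57 to 6.45). The Foxf1 message was thus shared by members and stem gate cells and nearly absent from every other class.

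Ptch1, the hedgehog receptor gene (chromosome 13, 63508328 to 63573598), had 35.1 CPM in members, 18.9 in stem gate and 9.17 in Kit/Stra8 gate cells, but 101 CPM below the germ gate. Fbxo32, encoding a ubiquitin ligase subunit known as a target of FOXO factors, had 40.5 CPM in members and 15.7 and 17.3 CPM in the neighbouring classes. Ogt, encoding the enzyme that attaches O-GlcNAc to proteins, had 83.5 CPM in members, 32.1 in stem gate and 38.7 in Kit/Stra8 gate cells. Each of these 3 genes had its top germ cell level in the members, and each was also present below the germ gate, Fbxo32 at 27.9 and Ogt at 191 CPM. The other leading genes, beside Nanos3, were Dbn1 and Enc1, which encode actin-binding proteins, the splicing regulator gene Mbnl2, the autophagy gene Wipi1, the gluconokinase gene Idnk, the F-box gene Fbxo41, the long non-coding RNA Platr3 and the gene model Gm12216. The log2 ratios of these 9 genes over other germ cells lay between 1.30 for Nanos3, Wipi1 and Platr3 and 1.65 for Dbn1 and Gm12216. With a stem gate of 1 UMI per 10000 the ratio of Platr3 was 0.79.

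Among genes lower than in the other germ cells, most of the 10 with the lowest ratios were carried by the late gate cells. 1700013H16Rik had 13.3 CPM in members and 155 in late gate cells, Trpv2, a cation channel gene, 12.3 and 124 CPM, and P3h3, a collagen-modifying enzyme gene, 41.5 and 374 CPM. Ccne2, encoding the S phase cyclin E2, had 9.39 CPM in members, 10.1 in stem gate, 24.5 in Kit/Stra8 gate and 70.7 in late gate cells. Pcsk1n, Rab28, Emc7, Mbnl3, Selm and the histone gene Hist1h2ae, whose close copies may share its reads, made up the rest. With a mitochondrial limit of 5%, which left 6 members, the ratios of Rab28 and Mbnl3 were above 0 and that of Emc7 was -0.45. With the Kit/Stra8 limit at 2 UMIs per 10000, which left 87 members, the ratios of Trpv2 and Pcsk1n over other germ cells were -3.49 and -2.96, against -1.56 and -1.70, and 1 member held 32% of the Trpv2 UMIs of the class.

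Against stem gate cells, 99 of 6777 genes (1.46%) were at least 2-fold higher in progenitor-like cells and 168 (2.48%) at least 2-fold lower. Of the stem cell list of 21 genes, 15 could be compared, and 9 were lower and 0 higher, with a median log2 ratio of -1.71 against -0.05 over all genes. The GDNF co-receptor gene Gfra1 (chromosome 19, 58235604 to 58455909) had 20.7 CPM in members (14.95 to 28.0) and 79.4 in stem gate cells (66.1 to 94.5), a log2 ratio of -1.94 (-2.48 to -1.42). Its level in members was close to the 20.4 CPM of Kit/Stra8 gate cells. A Gfra1 UMI was found in 27.0% of members, 77.1% of stem gate and 22.4% of Kit/Stra8 gate cells. Gfra1 was thus lower in members than in stem gate cells, with no difference from Kit/Stra8 gate cells detectable at this depth (log2 ratio 0.03, -0.78 to 0.87). The stem gate set members and stem gate cells apart, so genes that vary with its genes describe that choice in part. Among members, Gfra1 had 9.75 CPM in cells at 0 of the stem gate genes and 34.6 CPM in those above 0. The ratios of the stem cell list therefore test nothing.

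Ret, encoding the GDNF signalling receptor, had 48.9 CPM in members, between 96.4 in stem gate and 28.5 in Kit/Stra8 gate cells, with a log2 ratio of -0.98 over the first (-1.36 to -0.60) and 0.78 over the second (0.16 to 1.44). Tcl1, a cofactor gene of the kinase AKT, had 42.0 CPM in members, 165 in stem gate and 22.4 in Kit/Stra8 gate cells. Further genes of the list were lower than in stem gate cells. The phosphatase gene Dusp6 had 14.8 against 66.1 CPM, the transcription factor gene Egr2 11.4 against 49.1 and the inhibitor gene Spry4 4.94 against 25.8.

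Not all genes of the stem cell list followed this order, and of the 15 compared 10 lay between the neighbouring classes. Egr4 (chromosome 6, 85511121 to 85513589), a zinc finger transcription factor gene of the same family as Egr2, had its top level in the members, at 346 CPM (321 to 372), against 213 in stem gate, 134 in Kit/Stra8 gate and 36.7 in late gate cells. The log2 ratio of Egr4 over Kit/Stra8 gate cells was 1.37 (1.10 to 1.65) and over stem gate cells 0.70 (0.51 to 0.89). Nanos2, encoding an RNA-binding protein that keeps germ cells undifferentiated, had 15.3 CPM in members, 17.6 in stem gate cells and 1 UMI in Kit/Stra8 gate cells. Its difference from stem gate cells was within counting error (log2 ratio -0.20, -0.99 to 0.59). Id4 encodes an inhibitor of helix-loop-helix factors and is widely used to mark stem cells. It followed the order, with 22 UMIs in members and 44 in stem gate cells, a log2 ratio of -1.35 (-2.16 to -0.58). Its level was 10.9 CPM in members and 3.06 in Kit/Stra8 gate cells, and it was found in 18.0% of members.

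Beyond that list, ratios were ranked among genes that met the limits for naming, at least 100 UMIs among them. Of these, Fst, which encodes the activin-binding protein follistatin, had the lowest ratio over stem gate cells (10.9 against 53.5 CPM, log2 ratio -2.30). Pdzd2, a gene for a protein with PDZ domains, followed (20.7 against 95.1 CPM). The forkhead gene Foxc2 had 14.8 against 53.5 CPM, and Ptpn13, Rasl11a and Fbxo6 completed the 10 lowest. With a mitochondrial limit of 5%, which left 6 members, Foxc2 had a log2 ratio of 1.09 and so turned its direction, and Pdzd2 (-0.49 against -2.20) and Fbxo6 (-0.08 against -1.83) were no longer 2-fold lower. Among the genes higher than in stem gate cells after Ddit4 were Ddah1, encoding an enzyme that breaks down dimethylarginine (52.4 against 15.7 CPM), Crip2, a LIM domain gene (44.5 against 13.9), Cited1, a transcriptional co-regulator gene (39.0 against 13.9), and Brdt, a bromodomain gene of the male germ line (58.3 against 23.9). Crip2 and Cited1 were higher still in Kit/Stra8 gate cells, at 91.7 and 71.4 CPM, whereas Brdt had 25.5 CPM there and so had its top level in the members. Uap1l1, Kif26a, Lonrf3, Stx6, Mfsd5 and Pou2f2 were the remaining genes of this group, with log2 ratios from 1.27 to 1.63. Under that stricter limit Lonrf3 had -0.49, Kif26a, Cited1 and Brdt 0.51 each, and Uap1l1 3.31. Kif26a had 4.39 with cells thinned to 7000 UMIs.

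**Figure D3:**
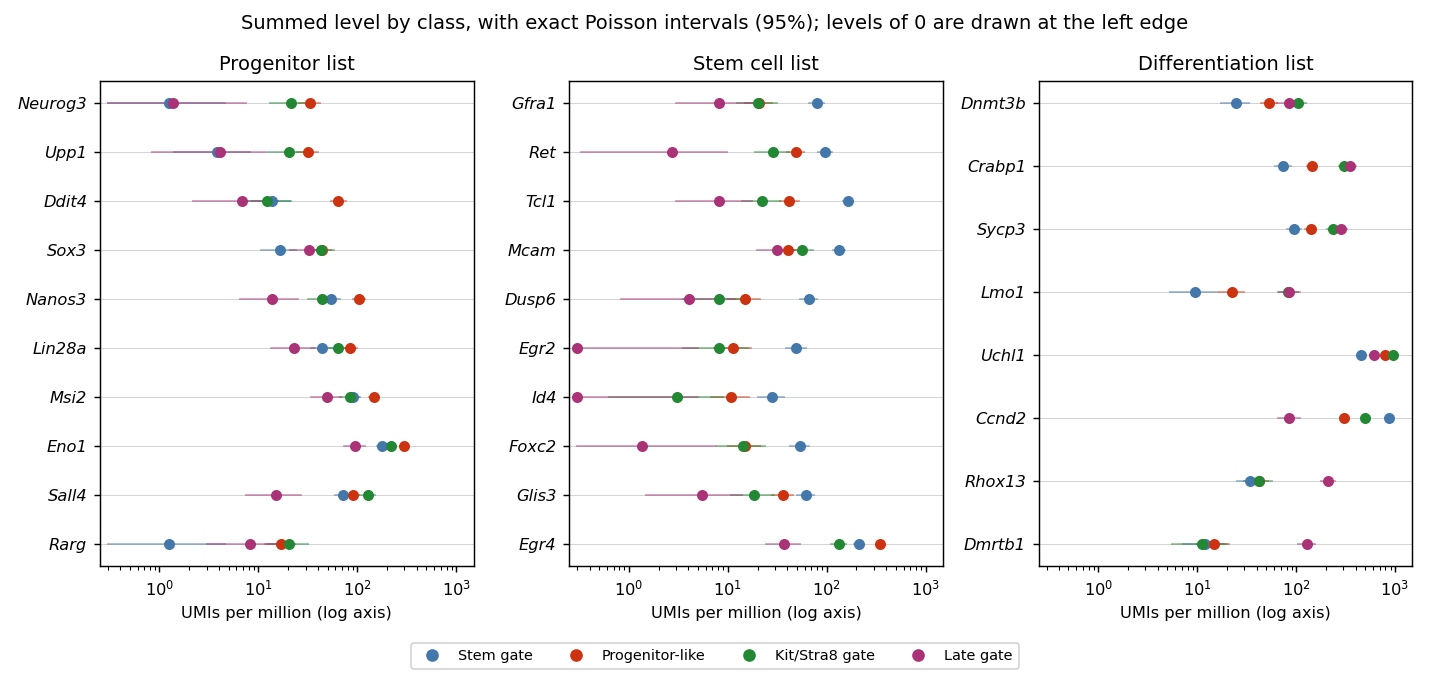
Levels in CPM on a log axis for genes of the progenitor, stem cell and differentiation lists. Points are sums over the cells of a class and lines are exact 95% Poisson intervals; a level of 0 is drawn at the left edge. Neurog3 had 33.1 CPM in progenitor-like cells, Gfra1 79.4 CPM in stem gate cells, and Egr4 346 CPM in progenitor-like cells.

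Against Kit/Stra8 gate cells, 121 of 6266 genes (1.93%) were at least 2-fold higher in progenitor-like cells and 127 (2.03%) at least 2-fold lower. In the differentiation list, from which Kit and Stra8 are left out, 13 of 16 genes could be compared, with 0 higher, 2 lower and a median log2 ratio of -0.75, against -0.13 over all genes. The same list had a median of 0.30 over stem gate cells, with 3 of 13 genes higher and 1 lower, against 1.46% and 2.48% of all genes and a median of -0.05. Dnmt3b, the de novo DNA methyltransferase gene (chromosome 2, 153649450 to 153687730), had 24.6 CPM in stem gate cells (17.5 to 33.6), 53.4 in members (43.8 to 64.4) and 105 in Kit/Stra8 gate cells (85.7 to 127). Crabp1, encoding a retinoic acid binding protein, had 73.7, 145 and 303 CPM in the same order, and Sycp3, a gene of the meiotic chromosome axis, 94.5, 140 and 234. For these 3 genes the members stood between their neighbours, with intervals of the ratios that excluded 0 on both sides. Here too the gates set the classes apart, so the order describes that choice in part.

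The cyclin gene Ccnd2 departed from this order. It had 302 CPM in members (278 to 327), below both the 863 of stem gate cells and the 500 of Kit/Stra8 gate cells, and a UMI in 84.0% of members. Lmo1, a LIM domain gene, had 22.2 CPM in members and 83.6 in Kit/Stra8 gate cells, a log2 ratio of -1.91 (-2.47 to -1.37). Nrtn, encoding the GDNF family ligand neurturin, had 17.8 against 65.2 CPM.

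Among genes higher in members than in Kit/Stra8 gate cells, several stood nearer to their levels in stem gate cells. Mypop, a transcriptional repressor gene, had 56.8 CPM in members, 58.6 in stem gate and 14.3 in Kit/Stra8 gate cells, and H2afy2, a macroH2A histone variant gene, 103, 115 and 28.5. Sdc4, encoding the surface proteoglycan syndecan-4, had 440, 362 and 151 CPM, and Nab2, a corepressor gene of EGR factors, 68.7, 50.4 and 21.4. These genes thus set members and stem gate cells together apart from Kit/Stra8 gate cells. Mycn, a MYC family gene, had 44.5 CPM in members, 26.5 in stem gate and 14.3 in Kit/Stra8 gate cells. Egr1, Gyltl1b, Zfp462, Rab3a, Glrx2 and Wipi1 were the other genes of this group, and Cited2, a co-regulator gene of the FOXO list, had 75 UMIs in members and 5 in Kit/Stra8 gate cells (log2 ratio 2.86, interval 1.58 to 4.53).

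The retinoic acid pathway was followed from receptors to enzymes. Rarg (chromosome 15, 102234938 to 102257517) had 16.8 CPM in members (11.6 to 23.5), 20.4 in Kit/Stra8 gate cells (12.5 to 31.5) and 2 UMIs, or 1.26 CPM, in stem gate cells (0.153 to 4.55). Rara, the other receptor with appreciable counts, had 22.7 CPM in both members and stem gate cells and 23.4 in Kit/Stra8 gate cells. The receptor difference along these classes was thus in Rarg, and that between members and Kit/Stra8 gate cells within counting error. The degrading enzyme gene Cyp26a1 had 2 UMIs in members and 13 in Kit/Stra8 gate cells. Over the list of 20 genes, 7 could be compared with the other germ cells, with 0 higher and 0 lower (0.913% and 2.81% of all genes). Over stem gate cells 1 of 5 was higher and 0 lower (1.46% and 2.48% of all genes), and over Kit/Stra8 gate cells 0 of 6 were higher and 2 lower, among them Crabp1 (1.93% and 2.03% of all genes).

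Genes that restrain growth signalling, a list of FOXO factors, their targets and inhibitors of mTORC1, had 2 of 17 genes higher and 0 lower than in the other germ cells, namely Ddit4 and Fbxo32, with a median log2 ratio of 0.24. Over all genes tested 0.913% were higher and 2.81% lower, with a median of -0.12. Foxo1, a FOXO factor that undifferentiated spermatogonia need, had 140 CPM in members, 93.8 in stem gate and 110 in Kit/Stra8 gate cells. Sesn3, a sestrin gene of the same pathway, had 37.1, 17.6 and 33.6 CPM. Immediate early genes and genes of the integrated stress response were followed as separate lists, and their part in the Ddit4 level was not tested. Of 12 immediate early genes 0 were higher and 2, Fos and Zfp36, lower than in the other germ cells, against 2.81% of all genes lower, and of 8 integrated stress genes 0 were higher and 0 lower. Atf4, the main transcription factor gene of that response, had 54.8 CPM in members, 59.2 in stem gate and 51.0 in Kit/Stra8 gate cells.

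Cell cycle genes were lower in progenitor-like cells as a group. Over 30 S phase genes the summed level was 2846 CPM in members (2773 to 2920), 3834 in stem gate, 3921 in Kit/Stra8 gate and 4362 in late gate cells. Over 30 genes of the G2 and M phases it was 2414 CPM in members (2346 to 2482), 3484, 3101 and 4206. Members had the lowest level of the 4 classes for 23 of 30 S phase genes and for 25 of 30 G2/M genes, against 26.6% of all genes. Most of the single differences were less than 2-fold, with 3 S phase and 5 G2/M genes past that limit over other germ cells, where 2.81% of all genes were lower by as much. Those were Cdc6, Prim1 and Ccne2, needed for DNA replication, and Mki67, Top2a, Kif23, Plk1 and Tpx2, needed for mitosis. Top2a, for example, had 136 CPM in members, 273 in stem gate and 255 in Kit/Stra8 gate cells.

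The same order was found in single cells. In single members the S phase sum ran from 10.9 to 68.8 UMIs per 10000 with a median of 24.98, against medians of 35.9 in stem gate, 38.8 in Kit/Stra8 gate and 45.2 in late gate cells. The G2/M sum ran from 3.76 to 115 with a median of 19.6, against medians of 30.2, 29.7 and 37.2. The ranges overlapped, and members were found at high values too. Cdkn1a, encoding the cell cycle inhibitor p21, was also lower in members, at 12 UMIs against 54 in stem gate cells (log2 ratio -2.52, interval -3.56 to -1.60), while Cdk4, a G1 kinase gene, had 402 CPM in members and 416 in stem gate cells.

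**Figure D4:**
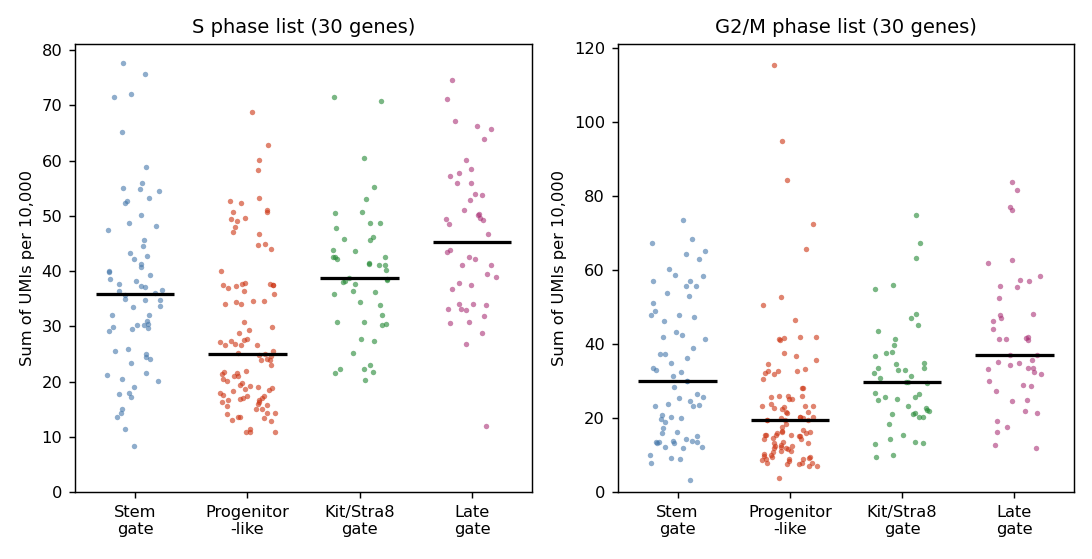
Summed UMIs per 10000 of 30 S phase genes (left) and 30 G2/M genes (right) in single cells of the 4 germ cell classes, with the median as a bar. The members had medians of 24.98 and 19.6, below those of the other 3 classes, with overlapping ranges.

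Among RNA-binding regulators of the germ line, 1 of 17 genes was higher than in the other germ cells and 0 lower, against 0.913% and 2.81% of all genes, with a median log2 ratio close to 0. The gene was Nanos3 (chromosome 8, 84173731 to 84185217), encoding an RNA-binding protein that protects germ cells, with 104 CPM in progenitor-like cells (90.6 to 119), 54.8 in stem gate, 43.8 in Kit/Stra8 gate and 13.6 in late gate cells and a UMI in 76.0% of members. Lin28a, which blocks maturation of let-7 miRNAs, had 85.0 CPM in members, 44.1 in stem gate, 63.2 in Kit/Stra8 gate and 23.1 in late gate cells. Msi2, a Musashi translation regulator gene, had 147, 90.7, 84.6 and 49.0 CPM. Utf1, a chromatin factor gene of pluripotent and undifferentiated germ cells, had 25.2 CPM in members, 6.30 in stem gate and 15.3 in Kit/Stra8 gate cells. Its log2 ratio was 2.0 over stem gate cells (1.01 to 3.14) and 0.72 over Kit/Stra8 gate cells (-0.13 to 1.66).

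Several other lists showed few or no genes past 2-fold over the other germ cells, where 0.913% of all genes were higher and 2.81% lower. For genes of the piRNA pathway, which silences transposons, the counts were 0 higher and 0 lower of 11, and for 10 germline genes held out of the gate they were 0 and 0. Glycolysis genes gave 0 and 0 of 16, although Eno1, the enolase gene, had its top level in members at 298 CPM, against 178 in stem gate and 217 in Kit/Stra8 gate cells. DNA methylation genes gave 0 and 0 of 9. Tet3, a 5-methylcytosine oxidase gene, had 38.0 CPM in members, 13.2 in stem gate and 55.0 in Kit/Stra8 gate cells. Hedgehog genes gave 1 higher and 0 lower of 4, the 1 being Ptch1, while the ligand genes Shh and Ihh were at 0 UMIs in members, which allows up to 3 UMIs in the class, and the hedgehog target gene Gli1 had 1.

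Of Wnt pathway genes 1 of 10 was higher, Tcf7l2, a transcription factor gene with 26.2 CPM in members and 6.12 in Kit/Stra8 gate cells, and 0 lower. Over stem gate cells 0 of 9 Wnt pathway genes were higher and 0 lower (1.46% and 2.48% of all genes). Tcf7l2 was thus less than 2-fold above stem gate cells. Axin2, a feedback target of Wnt signalling, had 12.3 CPM in members and 32.6 in Kit/Stra8 gate cells. Against the same 0.913% and 2.81% of all genes, Notch genes gave 0 higher and 1 lower of 7, BMP and Id genes 0 and 0 of 8, G1 regulators 0 and 3 of 14, surface proteins used for enrichment 0 and 1 of 7, and factors of undifferentiated spermatogonia 2 and 0 of 15. Thy1 itself, the gene of the protein used for selection, had 3 UMIs over the 100 members.

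**Figure D5:**
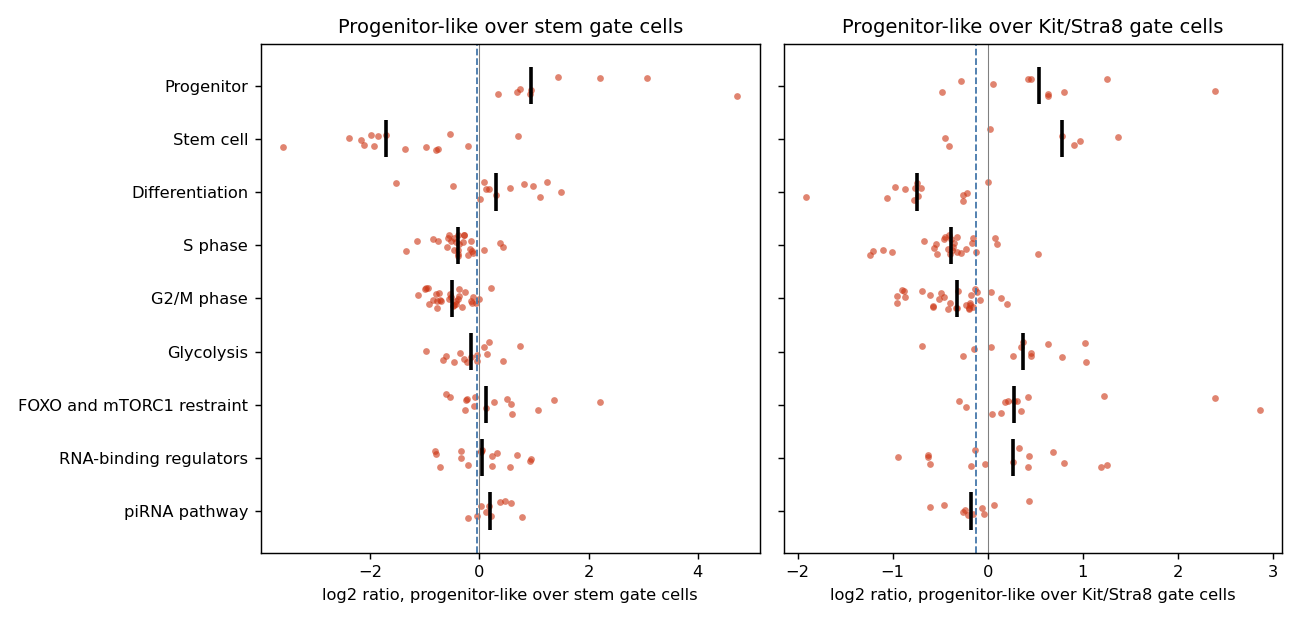
Log2 ratios of progenitor-like over stem gate cells (left) and over Kit/Stra8 gate cells (right) for genes of 9 lists with at least 50 UMIs. Points are genes, black bars medians of a list and the dashed line the median of all genes tested. The stem cell list had a median of -1.71 on the left, and the differentiation list -0.75 on the right.

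Somatic markers were low in the members. Over 10 Sertoli cell genes the sum was 119 CPM in members, 131 in stem gate, 135 in Kit/Stra8 gate and 151 in late gate cells, against 5266 below the germ gate, and Clu was the most abundant at 26.2 CPM. Of the 5 Sertoli cell genes with enough UMIs 1, Aard, was at least 2-fold higher than in the other germ cells, with a log2 ratio of 1.03, where 0.913% of all genes were higher. Over 12 stromal and Leydig cell genes it was 89.4 CPM in members, 156 in stem gate and 4262 below the gate, with Col1a1 at 26.2 CPM and Insl3 at 0. The 12 leukocyte genes summed to 49.4 CPM against 2974 below the gate, led by Lyz2 at 17.8 CPM, with Ptprc and Adgre1 at 0. Myoid genes summed to 23.7 CPM, led by Acta2, endothelial genes to 7.41 CPM and erythroid genes to 80.0 CPM, led by Hbb-bs at 62.2 CPM with Slc4a1 at 0. Somatic sums were therefore no higher in members than in stem gate cells apart from erythroid genes, whose sum there was 75 CPM. In single members the median of somatic marker UMIs was 2.68 per 10000 and the highest 6.44, against a median of 120 in the cells below the gate.

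Within the 100 members, levels are also given by the genes of the gates, which chose the members, so these splits are a description from which nothing is read. Between members with none and with some UMIs of the stem gate genes (57 and 43 cells, median depths of 20021 and 20085 UMIs), Neurog3 had 48.8 and 13.4 CPM, a log2 ratio of 1.86 (0.95 to 2.90). Gfra1 had 9.75 and 34.6 CPM (-1.83, -2.97 to -0.79), Tcl1 23.9 and 64.7 CPM, Dnmt3b 69.2 and 33.5 CPM, and Ccnd2 178 and 457 CPM. Upp1, at 33.7 and 29.0 CPM, differed by less than counting error. The S phase sum had 2463 and 3328 CPM and the G2/M sum 1947 and 3001 CPM. A Gfra1 and a Neurog3 UMI were found together in 4 members, against 23 with Gfra1 only and 24 with Neurog3 only.

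Split instead by Kit and Stra8, members at 0 and above 0 (60 and 40 cells) had 71.2 and 32.1 CPM of Foxf1, a log2 ratio of 1.15 (0.51 to 1.82). Ddit4 had 81.6 and 41.3 CPM (0.98, 0.41 to 1.58), Upp1 39.9 and 20.6 CPM (0.95, 0.14 to 1.83) and Crabp1 108 and 195 CPM (-0.86, -1.20 to -0.51). Neurog3, at 38.2 and 26.4 CPM, differed by less than counting error (0.53, -0.23 to 1.33). The S phase sum had 2772 and 2944 CPM and the G2/M sum 1997 and 2965 CPM. In the 27 members with no UMI of the stem gate genes, Kit, Stra8 or the late gate genes, Neurog3 and Ddit4 had 53.4 and 98.9 CPM, Foxf1 101 and Gfra1 5.93 CPM. These 27 cells are part of both sets at 0, and their interval for Ddit4 (73.4 to 130) overlapped that of the 60 members at 0 of Kit and Stra8 (65.9 to 99.8).

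Cell-to-cell spread was measured as the variance over the mean after thinning to 7000 UMIs, among 1857 genes with a mean of at least 0.5. Its median over genes was 1.11, close to that of random sampling. Ptcra had the largest value, 27.6, but 61.2% of its UMIs came from 1 member. Malat1, a nuclear long non-coding RNA, had 16.1 with a UMI in 99 members, Vps8, a vesicle-trafficking gene, 7.61 in 96, and the metallothionein gene Mt1 6.61 in all 100. The histone gene H3f3b had 6.42, and the cytokine gene Il11 5.76 with UMIs in 39 members, while Plk4, needed for centriole duplication, had 9.38 with 27.4% of its UMIs in 1 cell. Gm10260, Gm7120 and Gm16222, gene models without a name, completed the first 10. The most widely spread gene was thus set by 1 cell, whereas Malat1, Vps8 and Mt1 varied over nearly all members.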

How the data were processed

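The deposited matrix holds raw UMI counts, made by the authors from reads mapped to mm10 (GRCm38) and not scaled. The submitters' processing notes name Cell Ranger 2.1.0 and Seurat. UMI counting removes PCR copies, and reads come from the 3′ ends of messages. The matrix held 970 barcodes, 27998 genes and from 2655 to 44915 UMIs per barcode. The Zscan2-/- library was not analysed here.

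Gates, sums per class and ratios were computed in Python 3.11.15 (numpy 2.4.6, pandas 2.3.3, scipy 1.17.1), with exact Poisson, binomial and conditional binomial intervals at 95%. No p-values were computed, since cells are not replicates. Where shares are given as thinned, each cell was drawn down to 7000 UMIs, which left out no cell. Doublets were called with scrublet in scanpy 1.11.5 (expected rate 0.01); it called 4 of 970 barcodes, 0 of them members, so it may not have worked, and called barcodes were kept. Only 1 member had more than 2 times the median UMIs of the members. The calculation of ratios was tested on counts simulated without cell-to-cell spread in levels, and that of the gates on set values. These checks do not show that the intervals cover such spread. Positions are from GENCODE M21.

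The members and the 27 gene lists were chosen with earlier results of these data known. Named genes are the markers, genes of the lists and, per comparison, the 15 highest and 10 lowest ratios among genes found in 25% or more cells of the higher class, with at least 100 UMIs and no cell with over 25% of the UMIs of that class, plus the 10 most variable genes in members. Genes of the rule, mitochondrial, ribosomal protein and hemoglobin genes were left out of these choices. The 18 alternatives cover each gate, the filters, doublets, somatic UMIs, weighting, thinning, the denominator and the count minimum. Results for some items are not reported here.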

Additional observations from a re-analysis of the deposited data

How the results depend on the processing

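No paired analysis was possible because there was a single library. The mitochondrial filter moved the class most. With a mitochondrial limit of 5% only 6 members were left (24.0% of germ cells), and the genes at least 2-fold higher and lower were 40 and 67 over other germ cells, 18 and 9 over stem gate cells, and 3 and 6 over Kit/Stra8 gate cells. The share of germ cells was 29.8% with a stem gate of 1 UMI per 10000 and 31.3% with a late gate of 1 UMI. With cells thinned to 7000 UMIs the counts higher and lower were 38 and 136 over other germ cells, 34 and 61 over stem gate cells, and 45 and 53 over Kit/Stra8 gate cells. With a minimum of 20 UMIs per gene they were 187 and 532, 314 and 433, and 340 and 445. Thinning and the minimum change how many genes are compared. The other 114 values of this kind stayed within their interval or within 1.5 times. A germ gate of 6 UMIs per 10000 and an Hba-a1 limit of 10 UMIs left the class of every germ cell as it was. Their values are counted here and below among those that stayed, and say nothing about stability. Ratios of single genes over Kit/Stra8 gate cells were not run under the alternatives. Of those over other germ cells and over stem gate cells, 873 stayed within the interval of the reported ratio, 31 left it, and 4 changed sign. All 4 did so with the mitochondrial limit of 5%: Rab28 (0.19) and Mbnl3 (0.55) over other germ cells, and Lonrf3 (-0.49) and Foxc2 (1.09) over stem gate cells. Those rest on the 6 members left, and the cause was not tested. The ratio of Ddit4 over other germ cells ran from 2.04 to 2.60, that of Neurog3 from 1.72 to 2.40 and that of Upp1 from 1.69 to 2.39, while Sox3 ran from 0.45 to 1.36. With the 5% limit 25 of the 55 ratios, those of Ddit4 and Upp1 among them, had no value because 1 of the classes held 0 UMIs, so their ranges leave it out. Over stem gate cells the 5% limit also gave 0.51 for Fbxo32, 2.31 for Hmgn5, -1.08 for Rasl11a and -1.23 for Tcl1, and over other germ cells 2.36 for Nanos3 and Fbxo41, 3.36 for Platr3, 2.03 for Wipi1 and -2.81 for Selm. Thinning gave 2.73 for Sox3, 1.93 for Brdt and Pou2f2, 0.81 for Cited1 and -1.39 for Egr2 over stem gate cells, and 2.19 for Fbxo32, -2.78 for Rab28, -2.34 for Selm and -2.20 for Trpv2 over other germ cells. A stem gate of 1 gave -3.16 for Dusp6, -2.94 for Fst, 2.09 for Upp1 and 3.73 for Neurog3 over stem gate cells, a stem gate of 3 gave 0.97 for Mfsd5, and a Kit/Stra8 limit of 2 gave 0.90 for Cited1. Levels under about 3 UMIs in a class, as for Neurog3 in stem gate cells, are limited by depth.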
